A study of Mus musculus with 8 samples.

Results

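The *Hoxb* cluster was examined region by region for SMCHD1, a chromatin protein of the SMC family that takes part in gene silencing. GFP ChIP-seq, which counts DNA fragments recovered with an antibody to GFP, had been performed in primary female neural stem cells (NSCs) from E14.5 embryos of C57BL/6J background, kept for fewer than 10 passages. There were 3 WT lines, homozygous for the *Smchd1-GFP* fusion allele, and 3 *MommeD43* lines, homozygous for the *MommeD43* mutation recreated by CRISPR/Cas9 on that same tagged allele, so every line carried the GFP fusion. The *MommeD43* allele also holds a silent change made for the editing, and the WT ChIP-seq data had been published before, so a batch that follows genotype cannot be told apart from it. There was also 1 WCE library per genotype, not analysed here.

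The members were the regions on chromosome 11 of GRCm38 that overlap the span from the start of *Hoxb13* at 96194316 to the end of *Hoxb1* at 96368256, a length of 173.94 kb. This gave 56 of 2840 regions. Regions were built by the authors from published SMCHD1 peaks, extended by 5000 bp to the left and right, and a region was assigned to a gene when its peak, not its window, overlapped the gene. Each value is the authors' merged log2 normalized count, 1 per region and genotype, so the genotypes could not be tested against the variation among lines. Levels were compared between regions per kb of region, as the log2 value less the log2 of the length in kb. The regions held an estimated 218 to 1102 reads per WT library and 207 to 1098 reads per *MommeD43* library, as geometric means over 3 libraries. These reads were inferred from the deposited values. Counting error alone gives the difference between genotypes at a region an SD of 0.0355 to 0.0809, a lower bound that leaves out the variation between lines.

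*Hox* genes encode homeodomain transcription factors that give cells their position along the head to tail axis. They lie in clusters in which gene order follows the order of expression along the body, with *Hoxb1* at the anterior end and *Hoxb13* at the posterior end of the *Hoxb* cluster. A long stretch without other *Hoxb* genes separates *Hoxb13* from *Hoxb9*. The cluster also holds genes for the microRNAs miR-10a and miR-196a, which are known to act on *Hox* transcripts.

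The sequence shown first is from the region with the highest SMCHD1 level per kb in the cluster, followed by a promoter inside a peak and one with no peak. They are written 5′ to 3′ on the plus strand of GRCm38.p6 with CG dinucleotides in capitals. The 300 bases at the centre of that region's peak, between *Hoxb7* and *Hoxb6* at chr11:96291676-96291975, hold 10 CG and overlap no annotated exon. They are labelled strongest peak below, but the level was measured over the whole window of 11950 bp and not over the peak. Over the 2840 peaks the median was 2 CG in the central 300 bases, and over the 56 *Hoxb* peaks it was 5, with a range of 0 to 31.
strongest peak: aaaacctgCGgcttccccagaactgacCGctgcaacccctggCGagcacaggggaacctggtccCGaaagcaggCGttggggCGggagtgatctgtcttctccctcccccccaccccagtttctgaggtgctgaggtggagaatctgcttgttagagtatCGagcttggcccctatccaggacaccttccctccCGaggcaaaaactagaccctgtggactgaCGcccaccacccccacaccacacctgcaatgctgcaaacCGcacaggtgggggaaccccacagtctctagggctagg

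Promoters of 3 of the 10 *Hoxb* genes, *Hoxb8*, *Hoxb4* and *Hoxb1*, were found in the RefSeq promoter table of GRCm38.p6. That of *Hoxb8* (chr11:96281655-96281954) lay with all 300 bases inside the peak from 96281551 to 96282150 and holds 13 CG. Those of *Hoxb4* and *Hoxb1* had 0 bases in a peak and hold 14 and 10 CG, against a median of 7 over the 32851 promoters of the table. The *Hoxb1* promoter is at chr11:96365508-96365807. The letters TGATNNAT, the core of the joint PBX and HOX motif, occurred on either strand in both the *Hoxb8* and the *Hoxb1* promoter and in 8.85% of all promoters. The letters TTTATG, a core of CDX motifs, occurred in the *Hoxb8* promoter and not in that of *Hoxb1*, and in 11.9% of all promoters. Neither occurred in the peak centre shown first, and matches in the *Hoxb4* promoter are not given. A match describes the sequence only.
*Hoxb8* promoter: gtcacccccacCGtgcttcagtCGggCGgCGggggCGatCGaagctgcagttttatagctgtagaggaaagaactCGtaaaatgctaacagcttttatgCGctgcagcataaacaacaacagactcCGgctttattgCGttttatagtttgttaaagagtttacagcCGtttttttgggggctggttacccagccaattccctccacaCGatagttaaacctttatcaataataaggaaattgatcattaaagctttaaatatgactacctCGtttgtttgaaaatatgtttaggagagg
*Hoxb1* promoter: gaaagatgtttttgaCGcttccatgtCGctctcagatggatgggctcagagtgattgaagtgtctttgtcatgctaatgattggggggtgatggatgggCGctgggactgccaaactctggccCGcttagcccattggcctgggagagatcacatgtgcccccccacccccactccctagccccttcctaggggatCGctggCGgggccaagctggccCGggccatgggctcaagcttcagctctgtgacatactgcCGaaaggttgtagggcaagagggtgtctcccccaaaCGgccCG

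The hairpin of *Mir10a* (chr11:96317165-96317274), between *Hoxb5* and *Hoxb4*, lay inside a peak with all 110 of its bases. Of the 102 bases of the *Mir196a-1* hairpin (chr11:96265164-96265265), in the gap upstream of *Hoxb9*, 37 lay in a peak. Their mature RNAs from RefSeq are shown because both hairpins overlap peaks, with the seed (bases 2 to 8) in capitals.
miR-10a-5p: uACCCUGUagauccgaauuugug
miR-196a-5p: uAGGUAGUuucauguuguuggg

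SMCHD1 was unevenly spread along the cluster, and in both genotypes the level was highest between *Hoxb9* and the *Hoxb5* to *Hoxb4* interval. The region around the peak from 96290851 to 96292800, which covers the start of *Hoxb6*, had the highest level per kb in both genotypes. It was 6.99 in WT and 7.20 in *MommeD43* NSCs, rank 18 and rank 11 of all 2840 regions. The lowest was an isolated region in the gap, with 4.84 and 4.99, ranks 1109 and 1075. On a linear scale the highest region was 4.43 times the lowest per kb in WT and 4.65 times in *MommeD43* NSCs. As a whole, the median level per kb of the *Hoxb* regions was 4.53 times that of the 2672 regions outside the *Hox* clusters in WT and 4.81 times in *MommeD43* NSCs.

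**Figure D1:**
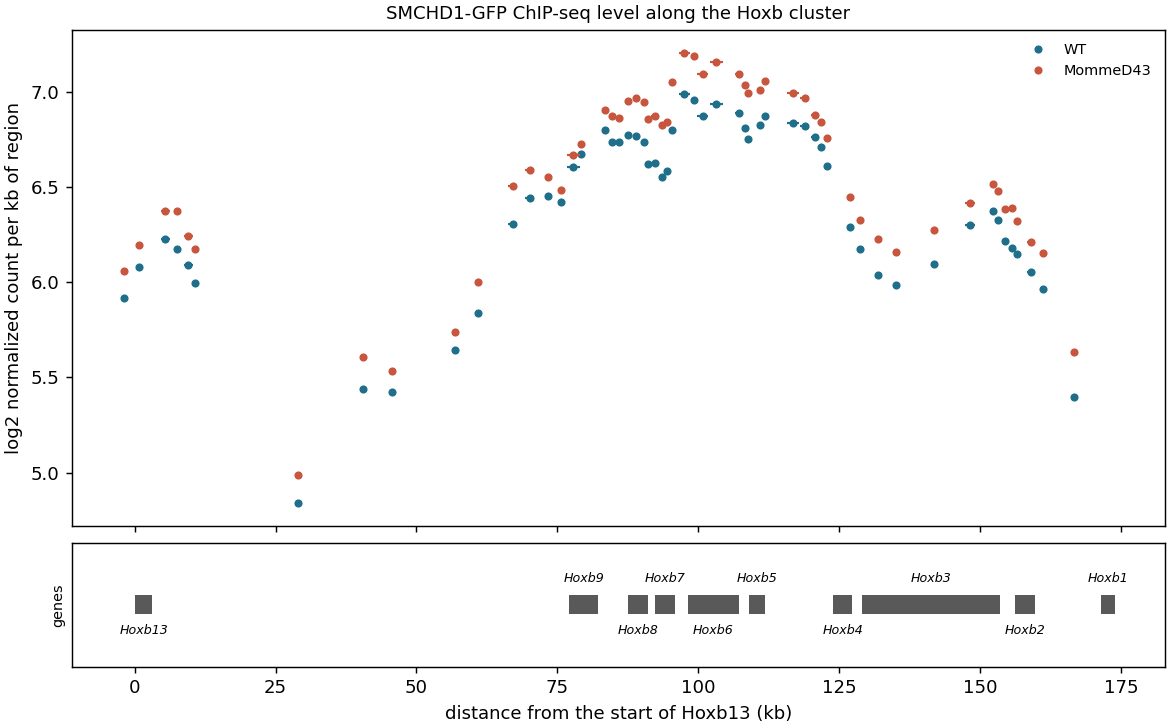
Level of SMCHD1-GFP ChIP-seq (log2 normalized count per kb of region) in WT and *MommeD43* NSCs at the 56 *Hoxb* regions, against the distance of the peak's centre from the start of *Hoxb13* in kb; short lines span the peaks and bars below mark the genes. Both genotypes peak at *Hoxb6*, at 6.99 and 7.20, and are lowest in the gap, at 4.84 and 4.99.

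The genes of the central group, *Hoxb9* to *Hoxb5*, had the highest levels, and those at either end the lowest. *Hoxb6* (ENSMUSG00000000690, 96292476 to 96301569) had 5 regions with a mean level per kb of 6.93 in WT and 7.15 in *MommeD43* NSCs. *Hoxb5* (96303336 to 96306121) followed with 6.82 and 7.02 over 3 regions. *Hoxb8* had 6.72 and 6.93 over 4 regions. These genes were ordered alike in both genotypes, and each step from *Hoxb6* to *Hoxb5* and from *Hoxb5* to *Hoxb8* was above its 95% counting interval. That interval combines the median counting SD of a single region of each gene, not the SD of the means. It treats the genes as independent, although windows of *Hoxb6* and *Hoxb5* share reads. It also covers counting error only, and in WT NSCs the ranges of single regions overlapped at each of these steps. *Hoxb7* had 6.64 and 6.90 over 4 regions, and the step to it from *Hoxb8* was above the interval in WT but not in *MommeD43* NSCs. With the highest region of each gene in place of the mean, the order turned. *Hoxb7* then had 6.80 and *Hoxb8* 6.77 in WT, and 7.05 and 6.97 in *MommeD43* NSCs. *Hoxb9*, a posterior gene that in WT NSCs could not be told from *Hoxb7*, had 6.64 and 6.70 over 2 regions.

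Levels were lower from *Hoxb4* to *Hoxb1*. *Hoxb4*, known for its role in blood stem cells, had 1 region with 6.29 per kb in WT and 6.45 in *MommeD43* NSCs. *Hoxb3*, the longest gene of the cluster, had 7 regions with a mean of 6.18 and 6.34. *Hoxb2*, which acts in the hindbrain, had 2 regions with a mean of 6.10 and 6.27. *Hoxb13*, known from the prostate and the tail end of the embryo, had 1 region with 6.08 and 6.19. Steps from *Hoxb3* to *Hoxb2* and from *Hoxb2* to *Hoxb13* were within counting error in both genotypes.

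No peak overlapped *Hoxb1* (96365752 to 96368256), the most anterior gene, known for patterning the hindbrain. The nearest peak, from 96360751 to 96361200, ended 4552 bp before its start. The region around it had 5.40 per kb in WT and 5.63 in *MommeD43* NSCs, the lowest of the 10 genes. The window of that region ends at 96366200, so it lies mostly before *Hoxb1* and covers only the first part of the gene. From *Hoxb6* to that region the level fell 2.89 fold in WT and 2.86 fold in *MommeD43* NSCs. Regions of neighbouring genes share reads, since the median window overlapped 8 others.

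**Figure D2:**
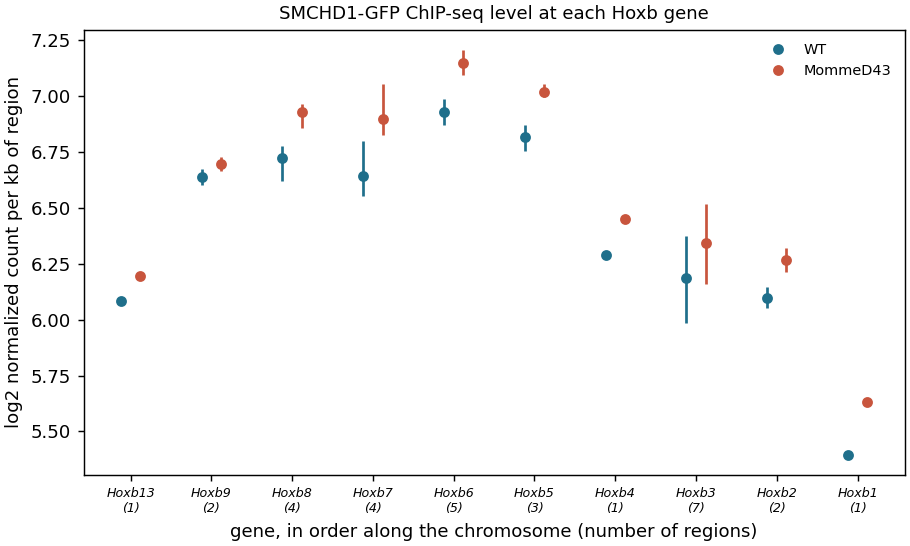
Mean level per kb (points, log2 normalized count per kb of region) at each *Hoxb* gene in WT and *MommeD43* NSCs, with lines from the lowest to the highest region of the gene and the number of regions under its name. *Hoxb6* is highest at 6.93 and 7.15 and *Hoxb1*, given by its nearest region, lowest at 5.40 and 5.63.

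In the gap between *Hoxb13* and *Hoxb9* (96197448 to 96271456, 74.009 kb) there were 13 regions with a median of 9.60 in WT and 9.77 in *MommeD43* NSCs, as deposited. The 41 regions from *Hoxb9* to *Hoxb1* had medians of 10.13 and 10.27. The gap less the span from *Hoxb9* to *Hoxb1* was -0.53 in WT and -0.50 in *MommeD43* NSCs, and -0.58 and -0.62 per kb. With windows that share no bases the difference was -1.05 and -1.07, larger by over 1.5 times. These 11 windows were picked from the highest level down, so their choice rests on the values compared. They include the weakest region of the gap.

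Within the gap, SMCHD1 was higher at the edges than in the middle. The 4 gap regions in the group of overlapping windows at *Hoxb13* had a median of 6.13 per kb in WT and 6.31 in *MommeD43* NSCs. A stretch of 17.7 kb with no peak followed. The isolated region after it was the weakest of the cluster, as given above, and the next 2 had a median of 5.43 and 5.57. The 6 gap regions in the group that continues into *Hoxb9* had a median of 6.36 and 6.49. The lowest of these were around the peaks from 96250951 to 96251250, with 5.64 and 5.74, and from 96255001 to 96255600, with 5.84 and 6.00. Both were weaker than the 4 gap regions at *Hoxb13*, the lowest of which had 5.99 and 6.17. The highest of the gap were the regions around the peaks from 96263551 to 96265200, at *Mir196a-1*, with 6.44 and 6.59, and from 96267151 to 96268050, with 6.45 and 6.55. Their order per kb was within counting error in both genotypes.

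The weak middle of the gap was also the part with the most repeated sequence. In the 3 windows there, 77.5%, 85.7% and 75.7% of 31-mers occurred once in the genome, against a median of 98.4% over the 56 windows. The next windows towards *Hoxb9*, around the peaks from 96250951 and from 96255001, were also weak and had 92.5% and 96.7%. With the 53 windows above 90%, a limit chosen after seeing the data, the gap less the span was -0.44 in WT and -0.41 in *MommeD43* NSCs. The part of repeated sequence in the low values was not tested.

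The peaks covered 42.3% of the 96.8 kb from *Hoxb9* to *Hoxb1* and 17.8% of the gap. Coverage was 73.6% at *Hoxb8*, 72.8% at *Hoxb7* and 70.3% at *Hoxb6*. It was 61.3% at *Hoxb2*, where the level was low, 46.2% at *Hoxb5* and 44.6% at *Hoxb9*, where it was high. At *Hoxb4*, *Hoxb3* and *Hoxb13* it was 22.2%, 19.5% and 19.2%. The interval of 12.145 kb between *Hoxb5* and *Hoxb4*, which holds *Mir10a*, was covered to 60.8%, and that of 11.739 kb between *Hoxb2* and *Hoxb1* to 11.4%. Of the 56 peaks, 22 overlapped an exon of a *Hoxb* gene, 7 lay within introns and 27 outside the *Hoxb* genes, some of these in the antisense genes or at a microRNA. The start of 7 of the 10 *Hoxb* genes lay in a peak, all but those of *Hoxb13*, *Hoxb4* and *Hoxb1*. In the other *Hox* clusters 24 of 29 gene starts did, and over all 21755 protein-coding genes the share was 0.795%. These shares describe the published peaks that the regions were built on.

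Sequence composition varied with the level over the whole cluster. Over the 56 windows, Pearson's r of the WT level per kb with GC content was 0.768, with CG per kb 0.729 and with the share of unique 31-mers 0.715. Spearman's rho was 0.615, 0.615 and 0.506. Over the 11 windows that share no bases r was 0.805, 0.735 and 0.906 and rho 0.736, 0.573 and 0.834. Those 11 were picked from the highest level down, so the set depends on the level itself. They include gap windows with 77.5% and 85.7% unique 31-mers and WT levels of 4.84 and 5.44. Over the 41 windows from *Hoxb9* to *Hoxb1* alone r was 0.649, 0.56 and 0.59 and rho 0.366, 0.297 and 0.366. The values share libraries and, for the 56 and the 41 windows, reads, so they are descriptions. Windows outside the *Hox* clusters had a median of 9.13 CG per kb, those of the gap 19.4 and those from *Hoxb9* to *Hoxb1* 28.4.

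Each of the 56 *Hoxb* regions was higher in *MommeD43* than in WT NSCs, where 66.0% of all 2840 regions were higher. The difference, *MommeD43* minus WT, had a median of 0.17, or 1.12 fold, against 0.07 over all regions. This was shared by the other clusters, where 32 of 32 *Hoxa*, 53 of 53 *Hoxc* and 27 of 27 *Hoxd* regions were higher, with median differences of 0.26, 0.13 and 0.19. Higher values were not limited to *Hox* clusters, since 1706 of the 2672 regions outside them were higher. The nearest regions outside the *Hoxb* cluster differed by 0.242 upstream and 0.227 downstream, and the region within *Ttll6* by -0.0488. None of the 56 was higher by over 0.5, as were 1.23% of all regions, or lower by over 0.5, as were 0.458%. After a local fit on level in the regions outside the *Hox* clusters, the median was 0.019 and 34 of the 56 regions were higher. Only 16 of the outside regions were at or above the *Hoxb* median level, so this fit had few regions to draw on there. After a fit on GC content the median was 0.0409 and 44 were higher.

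**Figure D3:**
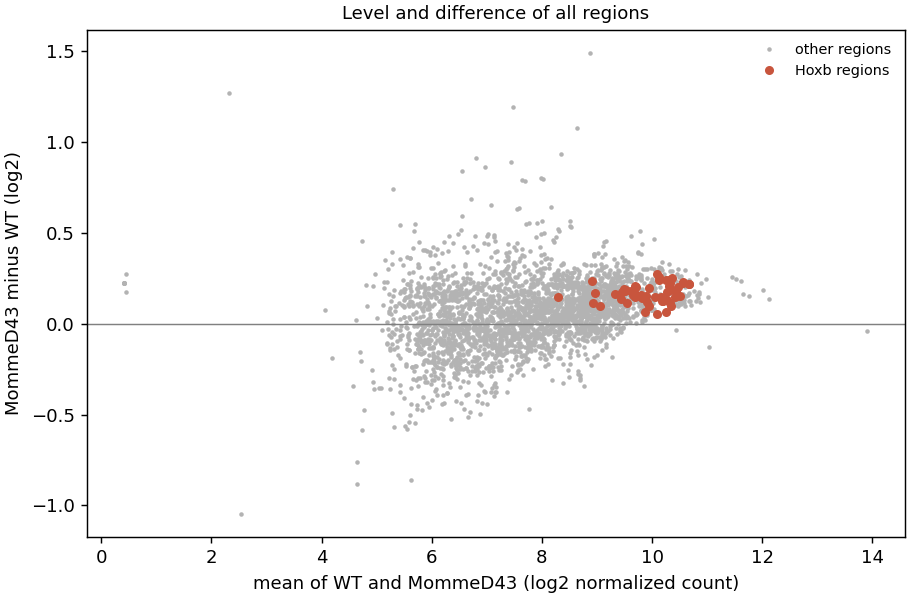
Difference between genotypes (*MommeD43* minus WT, log2) against the mean of both values (log2 normalized count) for all 2840 regions, with the 56 *Hoxb* regions coloured. The *Hoxb* regions lie above the median of all regions, 7.76 in WT and 7.83 in *MommeD43*, and between 0.05 and 0.27 in difference.

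The SD of the difference across the 56 regions was 0.0509, and the median counting SD of a single region was 0.0448. Overlapping windows share reads, so these SDs are given side by side only, and the part of counting error in the spread was not tested. The lowest value was at *Hoxb9* and the highest at *Hoxb7*. The region around the peak from 96273301 to 96273750, in an intron of *Hoxb9*, had 10.06 in WT and 10.11 in *MommeD43* NSCs as deposited, a difference of 0.0526 with a counting SD of 0.0436. That around the peak from 96287551 to 96288150, in an intron of *Hoxb7*, had 9.96 and 10.23, a difference of 0.274 with a counting SD of 0.0434. The windows of these extremes share 0 bases, and the differences were 0.221 apart with a counting SD of 0.0615. Both were picked as extremes of 56, so this distance is a description.

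By gene, the mean difference was 0.0578 at *Hoxb9*, 0.206 at *Hoxb8*, 0.257 at *Hoxb7*, 0.219 at *Hoxb6* and 0.203 at *Hoxb5*. It lay between 0.158 and 0.167 at *Hoxb4*, *Hoxb3* and *Hoxb2* and was 0.112 at *Hoxb13*. The region nearest to *Hoxb1* had 0.236 with a counting SD of 0.0657. After the local fit on level, the values of single regions ran from -0.111 in the *Hoxb9* intron to 0.136 at the region nearest to *Hoxb1*. Since there was 1 merged value per genotype, this pattern could not be set against the variation between lines.

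**Figure D4:**
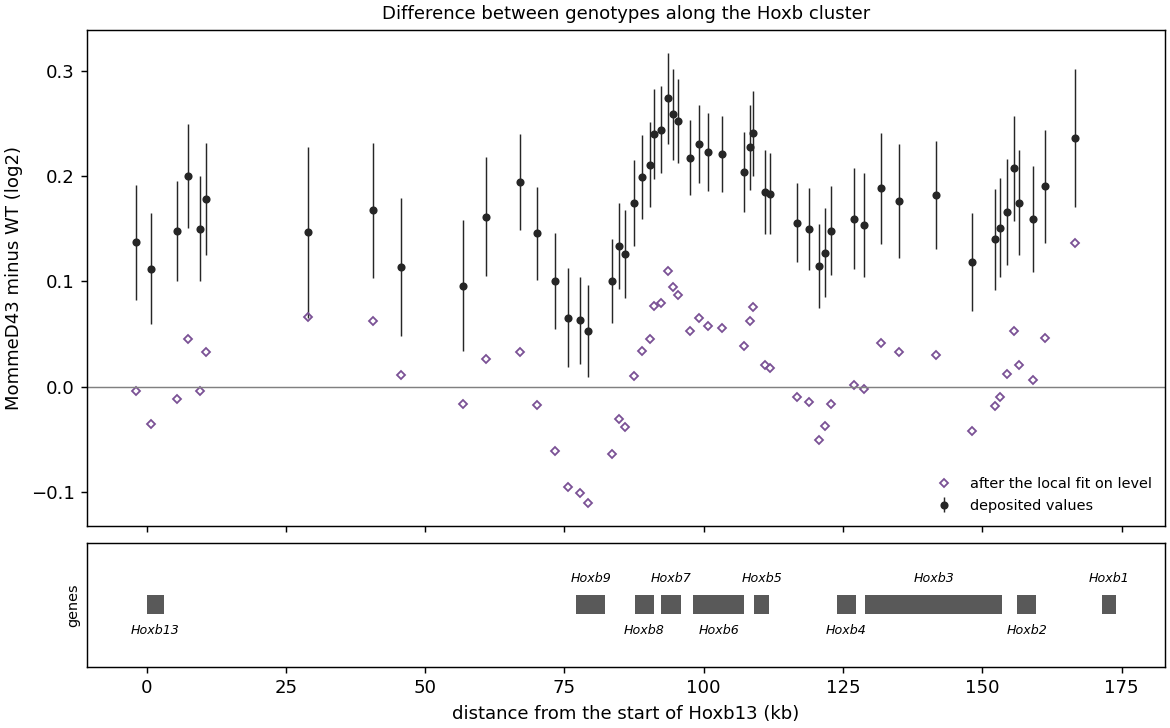
Difference between genotypes (*MommeD43* minus WT, log2) at the 56 *Hoxb* regions against distance from the start of *Hoxb13* in kb, as deposited (filled, bars of 1 counting SD) and after the local fit on level (open). Deposited differences run from 0.0526 at *Hoxb9* to 0.274 at *Hoxb7*, and neighbouring points share reads.

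The nearest regions outside the cluster lay below the *Hoxb* median of 6.45 per kb in WT and 6.57 in *MommeD43* NSCs. Upstream, the region around the peak from 96175801 to 96176100, 18.216 kb before *Hoxb13*, had 5.78 per kb in WT and 6.02 in *MommeD43* NSCs. That was above the region nearest to *Hoxb1*, with 5.40 and 5.63, and the weakest of the gap, with 4.84 and 4.99. Downstream, the next peak was 183.9 kb past *Hoxb1*, from 96552151 to 96552600 within *Skap1*, with 4.86 and 5.08. Of the 4 neighbouring genes listed, *Ttll6* and *Skap1* had a peak, and *Calcoco2* and *Snx11* did not.

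Other genes were taken from fixed lists. In the other clusters, 11 of 11 *Hoxa*, 9 of 9 *Hoxc* and 8 of 9 *Hoxd* genes were overlapped by a peak, against 9 of 10 *Hoxb* genes. *Hoxd1* was the exception and, like *Hoxb1*, is the most anterior gene of its cluster. The median level per kb over genes in WT NSCs was 7.13 for *Hoxa*, 6.90 for *Hoxc*, 6.95 for *Hoxd* and 6.64 for the 9 *Hoxb* genes. Of the genes listed inside the cluster, *Mir10a*, *Mir196a-1* and the antisense genes *Hoxb3os* and *Hoxb5os* had a peak, while *Prac1* and *Prac2* had no entry in the annotation used. The strongest region whose peak overlaps each of these 4 genes, *Ttll6* and *Skap1* differed by less than 0.5 between genotypes.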

How the data were processed

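Members and gene lists were chosen with earlier results of these data known. The authors trimmed the reads with Trim Galore 0.4.4, mapped them with Bowtie2 2.3.4.1 to GRCm38.p6, per the submitters' processing notes, and counted extended reads in SeqMonk. The deposited values are log2 counts normalized by total library size, with 3 replicates merged by the authors. The 5000 bp of flank on either side of the peak were checked in all 2840 windows. Reads per library were estimated from the lowest value of each column, with 0 reads entered as 0.9. With it, the product of reads of the 3 libraries was whole within 0.05 in 14 of 14 WT and 29 of 29 *MommeD43* values with a product under 10000, the lowest value left out. Entries of 0.5, 0.7, 0.8 and 1.0 were also tried and gave whole products in at most 43.8% of values. The match with 0.9 is therefore not a separate check of the estimate. Genes were placed with the study's coordinates and GENCODE exons. Named regions were those at each *Hoxb* gene, the extremes of level and difference, and the nearest outside. Local fits used a share of 0.3 of the 2656 regions outside the *Hox* clusters with a WT value above 4. A difference of 0.5 was the call. The lists of HOX cofactors and upstream regulators and the sequence of 1 region are not reported here. Functions were tested on simulated data. The software was Numba 0.67.0, statsmodels 0.14.6, SciPy 1.17.1, pandas 2.3.3, NumPy 2.4.6 and Matplotlib 3.10.9 under Python 3.11.15.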

Additional observations from a re-analysis of the deposited data

How the results depend on the processing

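No paired analysis was possible because the columns hold 1 merged value per genotype, and leaving out each line could not be run for the same reason. The cause of the shifts below was not tested. On the log2 scale, the *Hoxb* median less that of the regions outside the *Hox* clusters was 2.28 in WT and 2.38 in *MommeD43* NSCs, 2.18 and 2.26 per kb, and 2.38 and 2.48 with windows that share no bases. The *Hoxb* windows that share no bases were picked from the highest level down. The median difference of 0.166 was 0.019 after the fit on level and 0.0409 after that on GC content, and 0.0928 less the median of all regions. For the fit on level, only 16 regions outside the *Hox* clusters were at or above the *Hoxb* median level. Regions higher in *MommeD43* numbered 56, and 34 after the fit on level. The gap against *Hoxb9* to *Hoxb1* was -0.531 in WT and -0.5 in *MommeD43* NSCs. It was -0.616 per kb in *MommeD43*, -1.05 and -1.07 with windows that share no bases, and -0.44 and -0.411 with windows over 90% unique, chosen after seeing the data. The span from the highest to the lowest gene was 1.53 and 1.51 per kb, and 1.69 and 1.68 with values not per kb. *Hoxb1*, the lowest, was given there by its nearest region. By the highest region of each gene per kb, *Hoxb7* was above *Hoxb8* and *Hoxb3* above *Hoxb4* in both genotypes, the reverse of their means. Shifts were judged against a counting interval of 1 region, which covers counting error only.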
